A study of Mus musculus with 31 samples.

Results

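Mammary tissue of control and K5ΔNβcat mice was compared over 4 ordered stages: control tissue, small hyperplasia, large hyperplasia and tumor. The stages were taken from the sample titles alone, and all 25 tissue arrays of the 31 arrays in the series entered every comparison. They comprised 4 samples of control mice, 5 small hyperplasias, 5 large hyperplasias and 11 tumors. The 6 arrays of sorted basal cells were not used. All samples were labelled as C57BL6, whereas the methods of the study describe a mixed 129SV and C57BL6 background, and ages were not given in the labels. The K5ΔNβcat transgene encodes a stabilized β-catenin lacking part of its N-terminus under the keratin 5 promoter, which is active in basal cells of stratified and mammary epithelium. Control mice carried no transgene, so that the first step, from control tissue to small hyperplasia, changed genotype and stage together, and these cannot be told apart. The labels do not say whether each sample came from a separate mouse, and the p-values reflect only how samples spread, which may be technical.

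The mammary gland consists of a bilayered ductal epithelium, with basal myoepithelial cells outside and luminal cells inside, embedded in a fat pad rich in adipocytes and vessels. Stabilized β-catenin enters the nucleus and acts with Tcf and Lef factors on target genes, many of which encode feedback inhibitors of the Wnt pathway. In embryonic skin the same pathway specifies the placodes from which hair follicles arise, upstream of ectodysplasin and hedgehog signaling. Lesions of this model contain areas of squamous differentiation, in which keratinocytes build desmosomes and a cornified envelope.

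MAS5 signals of the Mouse Genome 430 2.0 array were analyzed as log2(signal + 16). A probe set, the group of probes for a transcript, was tested if its median signal reached 30 in at least 1 stage, which 24944 probe sets did. Just inside this limit lay Cep290, with a highest stage median of 30.052, and just outside it A930006K02Rik, with 29.997. The median signal of an array was 27.1 to 30.1 in the controls, 28.3 to 30 in the small and 29.8 to 32.9 in the large hyperplasias and 23.9 to 29.6 in the tumors. Spearman correlations between 2 arrays ranged from 0.824 to 0.966, and no pair was identical. β-catenin itself (Ctnnb1) was measured by 3 probe sets. The steepest had medians of 576 in control tissue, 1660 in small hyperplasias, 1690 in large hyperplasias and 3370 in tumors, with a slope of 0.74 ± 0.03 log2 units per stage (SE, limma, adjusted p = 1.99e-15). The brightest had medians of 2510, 3590, 3570 and 3570 and a slope of 0.15 per stage. Ctnnb1 was named here after its values had been seen, and which of these probe sets detect the transgene was not tested.

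The stages formed an ordered series over all tested probe sets. Along the first principal component, which held 58.8% of the variance, the controls lay at -101.4 to -96.7, the small hyperplasias at -55.9 to -37.2, the large ones at -31.7 to -14.1 and the tumors at 45.2 to 78.4, with no overlap between stages. The second component (11.8%) did not follow this order: control tissue lay lowest, at -44.5 to -38, and large hyperplasias highest, at 37 to 50.5. Tumors 1, 2 and 3 stood apart from the other 8. On the first component they lay at 45.2 to 53.5, against 61.2 to 78.4 in tumors 4 to 11, and on the second at 4.11 to 18.2, against -28.2 to -9.19. They also held more adipocyte RNA, with 1000, 519 and 740 of Adipoq signal, against at most 207 in the other tumors. Counts without these 3 tumors, an alternative chosen after the data were seen, are therefore given beside the results.

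**Figure D1:**
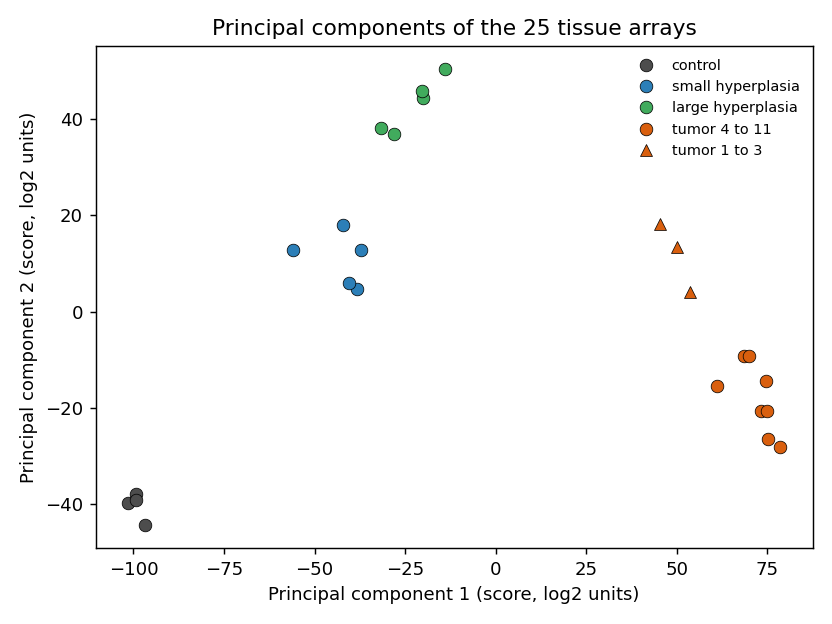
Scores of the 25 tissue arrays on the first 2 principal components of log2(signal + 16) over the tested probe sets, with colour for stage and triangles for tumors 1 to 3. The stages follow each other without overlap from left (control, -101.4 to -96.7) to right (tumor, 45.2 to 78.4), while on the vertical axis the large hyperplasias lie highest and tumors 1 to 3 lie above tumors 4 to 11.

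Expression differed among the 4 stages for 19025 of 24944 probe sets (76.3%, limma F test, Benjamini-Hochberg adjusted p below 0.05). A linear trend over equally spaced stages, expressed as a slope per stage, was called up for 8240 probe sets (33%) and down for 8277 (33.2%). Since the first step also changed the genotype, the trend was repeated within the transgenic tissues, where it was called up for 5714 (22.9%) and down for 7352 (29.5%). A steady rise required a called trend and an increase of at least 0.25 log2 units at each of the 3 steps. It was met by 625 probe sets of 461 genes (2.51%), and the matching steady fall by 1175 probe sets of 790 genes (4.71%). When each of the 3 steps had to pass the test on its own, 9 probe sets rose (0.0361%) and 102 fell (0.409%). These last counts rested on single arrays and ranged from 0 to 14 and from 38 to 118 when 1 array was left out. The rises numbered 0 without small hyperplasia 1, small hyperplasia 2 or large hyperplasia 2, and the falls 38 without large hyperplasia 2.

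Other probe sets did not follow the order of stages. A hyperplasia peak required both hyperplasia means to exceed control tissue and tumor, with the mean of the hyperplasias tested against each end, and was met by 311 probe sets of 237 genes (1.25%). The reverse pattern, a hyperplasia dip, was met by 33 probe sets of 28 genes (0.132%). Among the 19025 probe sets that differed at all, the order of the 4 means was a rise in 17.8%, a fall in 21.4%, a peak in 13.2%, a dip in 5.38% and neither in 42.2%. Without tumors 1 to 3 the counts were 649 steady rises, 1173 steady falls, 418 peaks and 45 dips, and 280 of the 311 peaks were again called.

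Much of the distance between tumor and control tissue was already present in the hyperplasias. Among probe sets called by the F test, 2786 were at least 1 log2 unit higher in tumors than in control tissue. Of these, the median had covered 46.6% of that difference in small and 58.7% in large hyperplasias. Of the 2692 probe sets called by the same test and at least 1 unit lower, the median had covered 34.4% and 53.1%. Among steady rises, the first step was the largest in 334 probe sets, the second in 39 and the third in 252. Among steady falls, the third step was the largest in 696, the first in 372 and the second in 107. For single genes the brightest probe set was used, which gave 12155 genes, of which 34.7% had the trend called up and 35.1% down. In this background the largest step was the first in 37.7% of genes, the second in 14.9% and the third in 47.4%.

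Proliferation genes changed mainly at the first step. All 35 mitosis and kinetochore genes tested had the trend called up (against 34.7% of all genes), and the first step was the largest in all 35 (against 37.7%). Their median relative to control tissue was 1.5 log2 units in small hyperplasias, 1.60 in large hyperplasias and 1.99 in tumors, whereas the medians over all genes were 0.03, 0.04 and -0.01. Of 31 DNA replication genes, 29 had the trend called up and 28 had their largest change at the first step. The exceptions in direction were Orc6, at 0.01 per stage (adjusted p = 0.80), and Orc1, which fell by 0.17 per stage (adjusted p = 0.040).

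Top2a, the topoisomerase that untangles sister chromatids, had signals of 60.7, 20.6, 59.7 and 42.5 in control tissue. It reached 239, 144, 275, 274 and 304 in small hyperplasias, and 225, 295, 299, 433 and 342 in large hyperplasias. In tumors its lowest, median and highest signals were 321, 446 and 514. No control sample reached the lowest small hyperplasia, while small and large hyperplasias overlapped. The first step was 2.11 ± 0.21 log2 units, the second 0.36 ± 0.19 and the third 0.47 ± 0.17 (SE), and the slope 0.92 per stage (adjusted p = 4.6e-13). Ube2c, which loads ubiquitin for the anaphase promoting complex, had a similar course, with medians of 36.4, 198, 170 and 313 over the 4 stages. Small hyperplasia 2 lay apart in Ube2c, with 84.8 against 189 to 203 in the other 4. Cdc20, the activator of that complex, had medians of 42.2, 243, 256 and 531. It was named after its values had been seen. The helicase subunit Mcm5 had medians of 42.1, 215, 247 and 389, and the licensing factor Cdt1 65.3, 186, 237 and 312.

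The promoters of these genes are shown because mitotic genes share short elements read by NF-Y (CCAAT) and by the DREAM complex (the cell cycle homology region TTTGAA). Promoters of 300 bases, from 250 before to 50 after the start site, were taken from RefSeq (GRCm38.p6), and both strands were searched. Capitals mark CCAAT, the homology region TTTGAA, and the core motifs of Tcf and Lef factors, which read CTTTGAT or, alternatively, CTTTGAA, each on either strand.
Top2a, chr11:99024140-99024439, minus strand: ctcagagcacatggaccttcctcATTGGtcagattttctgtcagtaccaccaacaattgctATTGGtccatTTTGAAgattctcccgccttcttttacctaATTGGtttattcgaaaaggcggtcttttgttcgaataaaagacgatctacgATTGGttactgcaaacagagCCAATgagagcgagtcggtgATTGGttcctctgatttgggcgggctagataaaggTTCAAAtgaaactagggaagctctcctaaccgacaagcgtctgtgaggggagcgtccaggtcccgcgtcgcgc
Ube2c, chr2:164769679-164769978, plus strand: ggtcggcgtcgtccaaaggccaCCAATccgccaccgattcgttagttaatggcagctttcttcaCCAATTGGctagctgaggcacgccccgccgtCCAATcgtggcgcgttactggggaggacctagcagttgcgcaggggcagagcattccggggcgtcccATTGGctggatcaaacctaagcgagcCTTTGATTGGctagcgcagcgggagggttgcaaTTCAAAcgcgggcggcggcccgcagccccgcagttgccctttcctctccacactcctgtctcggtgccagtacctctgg
Of the 35 mitosis genes, 30 had a promoter in this set. CCAAT was found in 23 of them (76.7%), against 42.4% of 9764 tested genes with a promoter, and TTTGAA in 22 (73.3%), against 14.6%. Top2a held 6 CCAAT matches, and its TTCAAA nearest the start site began 23 bases upstream. In Ube2c a TTCAAA began 29 bases upstream. Such matches describe the letters of the window and not a bound site.

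Squamous and desmosomal genes rose along the stages. Of 35 genes of the cornified envelope and squamous differentiation, all 35 had the trend called up, and 20 were steady rises (against 3.25% of all genes). Their median relative to control tissue was 2.25 log2 units in small hyperplasias, 2.72 in large hyperplasias and 5.14 in tumors. Among the leading steady rises were the protease Klk6, the skin aspartic protease Asprv1, the keratinocyte protein Krtdap and the calmodulin-like Calml3. Klk6 had signals of 22.3, 15.4, 4.39 and 4.57 in control tissue, all below 30, and 309, 252, 414, 239 and 295 in small hyperplasias. Large hyperplasias had 986, 1050, 737, 304 and 425, and tumors 1620 to 3370 with a median of 2160. All control samples lay below the hyperplasias and all tumors above them, while small and large hyperplasias overlapped. The slope of Klk6 was 2.01 per stage (adjusted p = 7.9e-17).

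Other members of this group were late. The terminal keratin Krt1 had medians of 2.04 in control tissue, 129 in small hyperplasias, 128 in large hyperplasias and 3400 in tumors. Its second step was -0.11 ± 0.40 and its last 4.30 ± 0.34 log2 units, so that it met the trend but not the steady rise. Loricrin (Lor), the main protein of the cornified envelope, had medians of 39.1, 36.7 and 28.4 before the tumor stage and 963 in tumors, of which the lowest had 117. Involucrin (Ivl), an early scaffold protein of the envelope, rose steadily with medians of 5.41, 86.7, 125 and 1040. Krt1, Lor, Ivl and Krt10 were named after their values had been seen. Tumor 11 had the lowest Krt1 (1030), Lor (117) and Krt10 (388) of all tumors, against 2350 to 5260 of Krt1 signal in the other 10.

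Among desmosome genes, which hold keratinocytes together, 9 of 14 were steady rises (against 3.25% of all genes). The trend was called up in 13 of 14 (against 34.7%). Desmoplakin (Dsp), the link between desmosome and keratin filaments, had 270, 433, 472 and 353 in control tissue and 1750, 1820, 1740, 1490 and 2000 in small hyperplasias. It had 2530, 2920, 2310, 2120 and 2360 in large hyperplasias and 3160 to 4790 in tumors, with a median of 3740. No stage overlapped its neighbour, and the slope was 1.03 ± 0.04 per stage (adjusted p = 1.2e-17). The single member that went the other way was plakophilin 2 (Pkp2), which fell by 0.61 per stage (adjusted p = 2.4e-09).

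Basal epithelial genes included further steady rises. Of 24 basal epithelial genes, 19 had the trend called up (against 34.7% of all genes) and 3 had it called down (against 35.1%). Within the transgenic tissues 13 of the 24 had it called up and 5 down, against 2999 and 3887 of all 12155 genes. Steady rises numbered 9, 2 of them also counted among the desmosome genes (Perp and Dsc3). Krt17, a keratin of basal and appendage cells, was the member that passed the test at every step. Its signals were 54.3, 41.5, 48.3 and 54.3 in control tissue, 653, 803, 797, 591 and 846 in small hyperplasias and 1900, 2050, 1830, 1230 and 1380 in large hyperplasias. Tumors had 1910 to 3510, with a median of 2340, and overlapped large hyperplasias. The steps were 3.51 ± 0.15, 1.15 ± 0.15 and 0.54 ± 0.12 log2 units (SE, adjusted p = 0.048 for all 3 together). Krt14 and Krt5, the keratin pair of basal cells, had slopes of 1.14 and 0.99 per stage, and the basal transcription factor Trp63 0.83. Dst, which anchors keratins at hemidesmosomes, was called a steady fall by its brightest probe set (-0.46 per stage), while another of its probe sets had a slope of 0.66, so no direction is given for the gene. The basal list summed to signals of 3370 to 4610 in the controls, to 12000 to 16600 in the small and 14700 to 23700 in the large hyperplasias and to 27500 to 41100 in the tumors, and the part of this increase in the other rises was not tested.

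**Figure D2:**
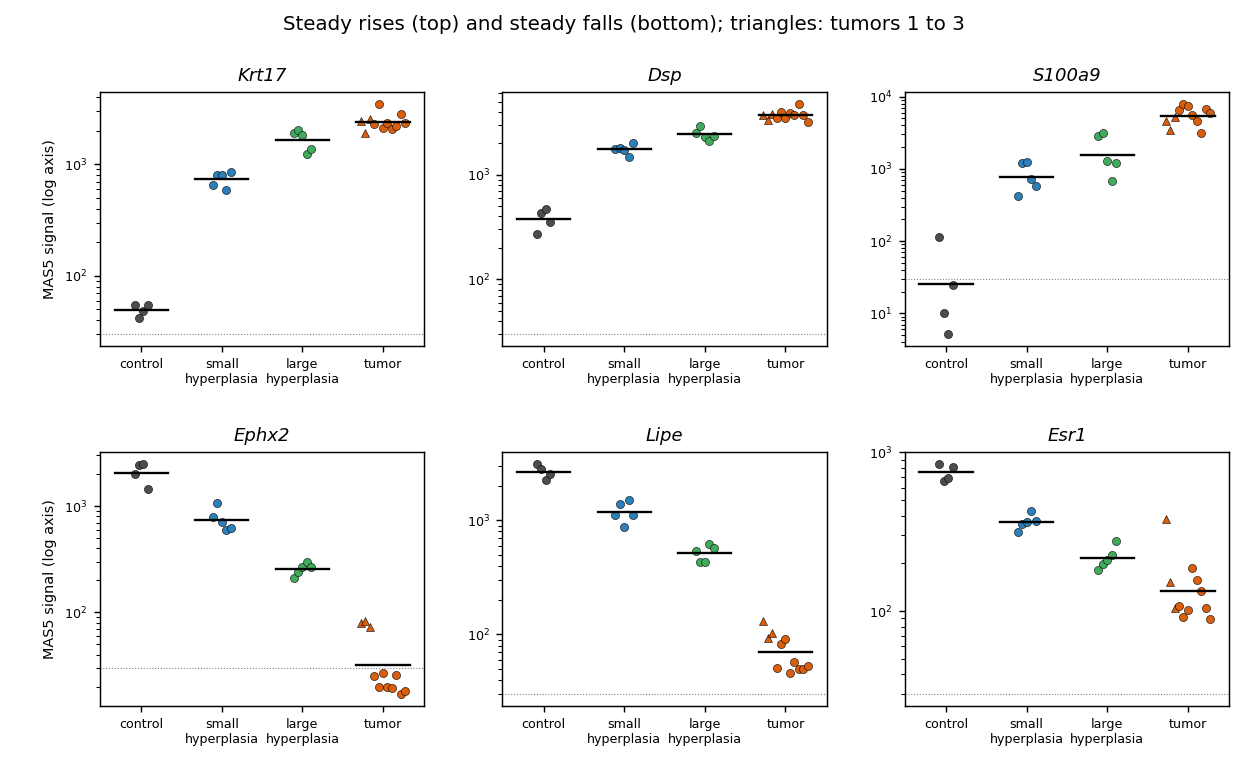
MAS5 signal on a log axis for 3 steady rises (Krt17, Dsp, S100a9) and 3 steady falls (Ephx2, Lipe, Esr1) in each sample of the 4 stages. Points are samples, triangles are tumors 1 to 3, bars are means of log2(signal + 16) turned back to signals, and the dotted line marks 30. Krt17 lies between 41.5 and 54.3 in control tissue and between 1910 and 3510 in tumors, and Ephx2 shows 4 separate levels in the opposite direction.

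Neutrophil genes rose along the stages as well, with 14 of 14 trends called up (against 34.7% of all genes) and 9 steady rises (against 3.25%). S100a9, a calcium-binding protein of neutrophils and of stressed keratinocytes, is also counted in the squamous list, as is its partner S100a8. It had 114, 10.1, 5.17 and 24.9 in control tissue, 416, 1200, 1260, 729 and 579 in small hyperplasias and 2890, 3170, 1290, 680 and 1220 in large hyperplasias. All tumors, at 3180 to 8020, lay above every large hyperplasia. The neutrophil attractant Cxcl2 had medians of 13.8, 102, 287 and 375. Il1b, an inflammatory cytokine named after its values had been seen, had 35.7, 121, 297 and 1040. The list summed to signals of 208 to 695 in the controls, 1830 to 4500 in the small and 2820 to 10400 in the large hyperplasias and 9770 to 26000 in the tumors. In bulk tissue a change in the number of cells of a type and a change in RNA per cell cannot be told apart.

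Ranked by the smallest of the 3 steps, among genes with a median of at least 100 in some stage, the acute phase protein Saa3 led the steady rises. Its signals were 45.6, 3.34, 2.35 and 25.6 in control tissue, 184, 254, 251, 255 and 120 in small hyperplasias and 899, 588, 721, 724 and 567 in large hyperplasias. Tumors spread from 763 to 6330 and overlapped large hyperplasias. The steps were 2.84 ± 0.53, 1.67 ± 0.50 and 1.90 ± 0.43 log2 units (SE). The prostate acid phosphatase gene Acpp had medians of 8.37, 54.4, 136 and 340. Among 16 interferon response genes, 14 had the trend called up (against 34.7% of all genes) and 5 were steady rises (against 3.25%). Control sample 1 stood apart in this list, at a mean of 0.84 log2 units over its genes relative to the control average, against -0.38 to -0.18 in the other 3 control samples. The summed signal of the list was 1680 to 3960 in the controls, 1830 to 2700 in the small and 3240 to 3930 in the large hyperplasias and 2600 to 11600 in the tumors. Without control sample 1, 15 had the trend called up and 7 were steady rises. The 2-5A synthetase Oas1a had medians of 76, 184, 288 and 745 (218 in control sample 1 and 74.8 to 76.6 in the other controls), and the chemokine Cxcl10 26.1, 60.9, 166 and 249.

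A further set of genes changed chiefly between large hyperplasia and tumor. Of 21 glycolysis and hypoxia genes, 18 had their largest step there, against 47.4% of all genes, and their medians relative to control tissue were 0.15, 0.15 and 1.01 log2 units over the 3 later stages. The glucose transporter Slc2a1 had 184, 210, 173 and 187 in control tissue, 293, 309, 309, 290 and 226 in small hyperplasias and 433, 470, 416, 280 and 369 in large hyperplasias. Every tumor lay above these, at 759 to 2140 with a median of 1410, and the third step was 1.73 ± 0.20 log2 units. Tumors 1 to 3, with 896, 759 and 874, were the 3 lowest tumors. The prolyl hydroxylase Egln3, an oxygen sensor and itself hypoxia-induced, had medians of 46.2, 214, 233 and 1400. Carbonic anhydrase 9 (Car9), a hypoxia marker named after its values had been seen, had 18.7, 23.9 and 25.6 before the tumor stage and 114 in tumors. The direction was not shared by the whole list. Pfkfb3, which makes the allosteric activator of glycolysis, was a steady fall (-0.93 per stage), and Aldoa, Vegfa and Bnip3 also had the trend called down. Skeletal muscle genes, from a tissue rich in glycolytic enzymes, had summed signals of 1260 to 2520 in the controls, 391 to 751 in the small and 227 to 392 in the large hyperplasias and 208 to 6140 in the tumors, and their part in these levels was not tested.

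The largest step was the last in 10 of 18 matrix proteases and inhibitors and in 7 of 12 milk protein genes, shares near that of all genes (47.4%), but some members changed strongly there. Mmp13 and Mmp10, a collagenase and a stromelysin, had last steps of 3.10 and 3.11 log2 units. Every control, small and large hyperplasia value of Mmp10 was below 30, the limit used for testing. Mmp13 had 12.2, 13.9, 14.1 and 7.5 in control tissue, 167, 33.8, 127, 161 and 99 in small hyperplasias and 186, 202, 389, 167 and 169 in large hyperplasias. Tumors had 366 to 4170, and a single large hyperplasia exceeded the lowest tumor. The sterol oxidase Msmo1 of cholesterol synthesis had medians of 150, 216, 294 and 758, and 14 of 19 genes of that pathway had their largest change at the last step. The casein gene Csn2 had 7.67, 1.15, 8.43 and 1.37 in control tissue, 96.7, 22, 84.8, 63.7 and 50.3 in small hyperplasias and 108, 51.6, 15.2, 28.5 and 29.8 in large hyperplasias. In tumors it ranged from 172 to 6000, with the highest values in tumors 1, 2 and 3 (5780, 4640 and 6000). The same 3 tumors held 3630, 1650 and 6880 of Glycam1, a mucin of milk, against at most 349 in the other 8, and without them Glycam1 was no longer among the steady rises. Csn2 was named after its values had been seen.

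**Figure D3:**
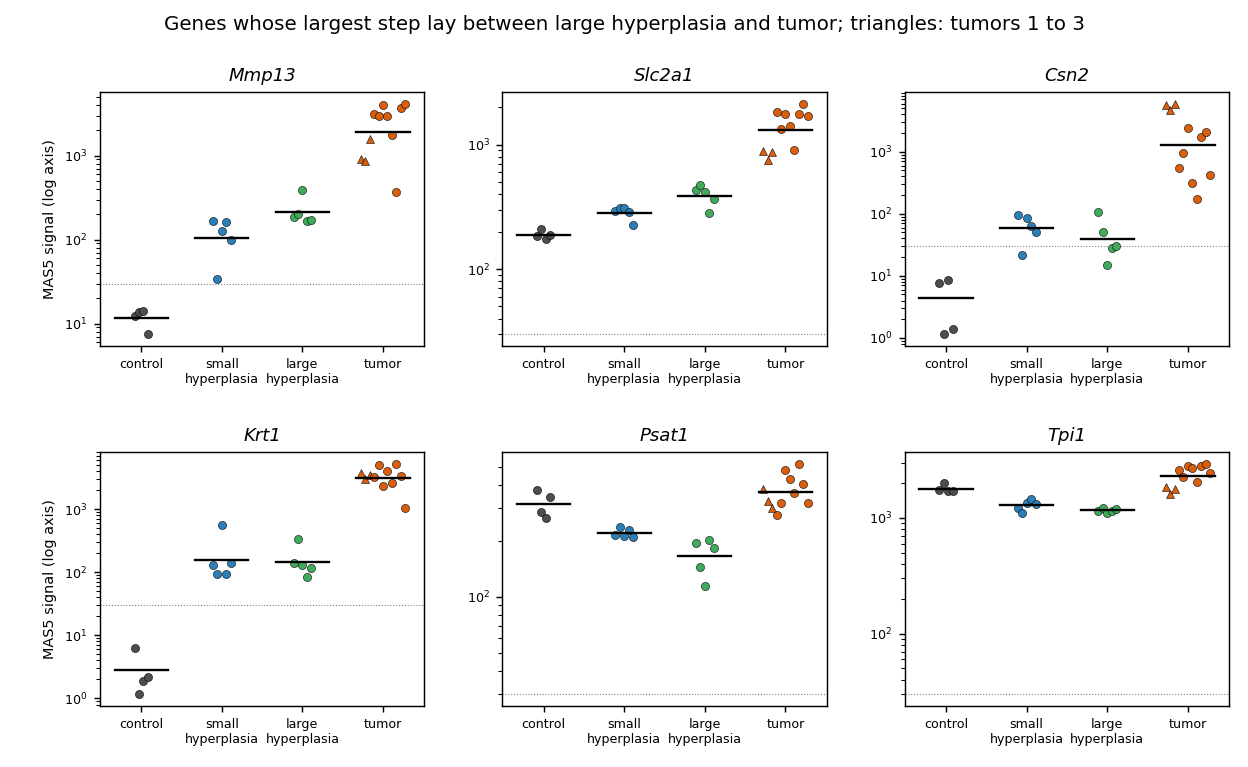
MAS5 signal on a log axis for Mmp13, Slc2a1, Csn2 and Krt1 and for the dip genes Psat1 and Tpi1 in each sample of the 4 stages, with symbols and bars as in the plot of steady rises and falls. Slc2a1 lies at 759 to 2140 in tumors and at or below 470 elsewhere, Csn2 is highest in tumors 1 to 3, and Psat1 and Tpi1 are lowest in large hyperplasias.

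Adipocyte genes fell along the stages. All 22 adipocyte genes tested had the trend called down (against 35.1% of all genes), and 17 were steady falls (against 5.53%). Their median relative to control tissue was -0.88 log2 units in small hyperplasias, -1.49 in large hyperplasias and -4.35 in tumors, and all 22 had their largest change at the last step. Lipe, the hormone-sensitive lipase, had signals of 3150, 2840, 2240 and 2560 in control tissue, 1110, 1380, 872, 1510 and 1110 in small hyperplasias and 542, 431, 435, 616 and 573 in large hyperplasias. Tumors had 46.3 to 130, with a median of 57.2. No stage overlapped its neighbour, and all 3 steps passed the test, at -1.18 ± 0.22, -1.17 ± 0.21 and -2.63 ± 0.18 (adjusted p = 0.015 for the 3 together). Leptin (Lep), the satiety hormone of fat cells, had medians of 1910, 445, 207 and 3.02. Summed over the list, signals were 116000 to 128000 in the controls, 60800 to 84400 in the small and 47400 to 63600 in the large hyperplasias and 3860 to 17600 in the tumors. The part of this loss of fat pad RNA in the steady falls below was not tested.

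By the same ranking the leading steady falls were Ephx2, Apol6, Npr3, Nnat, Ces1f, Sncg, Tmem45b and Lep. Ephx2, the soluble epoxide hydrolase of lipid mediators, had 2020, 2450, 2510 and 1450 in control tissue, 787, 1080, 706, 599 and 620 in small hyperplasias and 212, 241, 269, 296 and 269 in large hyperplasias. Tumors had 17 to 83.5, with the 3 highest values in tumors 1 to 3 (79.4, 83.5 and 72.9). Its steps were -1.46 ± 0.30, -1.48 ± 0.29 and -2.50 ± 0.24 log2 units, and all 4 stages were separate. Sncg, γ-synuclein, had steps of -1.28, -1.49 and -1.69 and medians of 3200, 1390, 472 and 130. Npr3, the clearance receptor for natriuretic peptides, had medians of 2930, 891, 286 and 17. Nnat, an imprinted proteolipid gene, had 4140, 1450, 334 and 11.8. Ephx2, Apol6, Sncg and the lipase Lipe were among the 102 probe sets that passed the test at every step.

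Vessel and mitochondrial genes had trends called down as well. Of 17 endothelial genes, 17 had the trend called down (against 35.1% of all genes) and 4 were steady falls (against 5.53%). The list median relative to control tissue was -0.62 log2 units in small hyperplasias, -1.11 in large hyperplasias and -1.13 in tumors. The first step was the largest in 10 of the 17 genes and the last in 4. Tek, the angiopoietin receptor, had 263, 224, 263 and 234 in control tissue, 185, 204, 156, 148 and 183 in small hyperplasias, 104, 105, 106, 125 and 93.5 in large hyperplasias and 24.3 to 64.5 in tumors, with 4 separate levels and a slope of -0.72 ± 0.04 (adjusted p = 3.1e-13). Of 22 respiratory chain and citrate cycle genes, 21 had the trend called down (against 35.1% of all genes) and 5 were steady falls (against 5.53%). The second step was the largest in 14 of the 22 (against 14.9%). The succinate dehydrogenase subunit Sdha had medians of 2390, 1860, 1250 and 710. The exception in direction was Cox5a, at 0.19 per stage (adjusted p = 2.9e-06), whose second step was negative (-0.34).

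Of 8 hormone-sensing luminal genes, 5 had the trend called down (against 35.1% of all genes) and 2, Esr1 and Foxa1, were steady falls (against 5.53%). The list median relative to control tissue was 0.45 log2 units in small hyperplasias, -0.39 in large hyperplasias and -1.37 in tumors. Esr1, the estrogen receptor, had 850, 661, 693 and 804 in control tissue, 316, 354, 362, 425 and 370 in small hyperplasias, 182, 197, 210, 227 and 275 in large hyperplasias and 89.1 to 381 in tumors. Tumor 1 had 381, whereas the other 10 had at most 187. Foxa1, a pioneer factor for that receptor, had medians of 741, 524, 278 and 48.7, with overlap between all neighbouring stages. Pgr, a target of Esr1, did not fall steadily: its first step was 0.63 log2 units, and medians were 196, 320, 164 and 24.8. The general luminal keratins Krt8 and Krt18 had no called trend (adjusted p = 0.077 and 0.068), with Krt18 medians of 1780, 2100, 913 and 1640. Both lay near the threshold. Krt18 was called down without control sample 1, large hyperplasia 5, tumor 2, 8 or 10, or tumors 1 to 3 (adjusted p = 0.0278 to 0.048). Krt8 was called down without small hyperplasia 2 or tumor 8 (adjusted p = 0.0497 and 0.0415). Gata3 and Wnt4 had the trend called up, at 0.29 and 0.20 per stage.

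Smooth muscle genes did not all move the same way. Of 16 genes, 9 had the trend called down (against 35.1% of all genes) and 4 were steady falls (against 5.53%). Among these falls was the myosin heavy chain Myh11, with medians of 367, 204, 105 and 42.7. Acta2, smooth muscle actin, had 3240, 2050, 1580 and 2310, so that tumors lay 0.53 log2 units above large hyperplasias. The trend was called up, with positive last steps, in 5 of the 16 genes (Actg2, Tpm1, Tpm2, Cald1 and Csrp1). That share was near the one of all genes (34.7%). Of 8 brown fat genes, 7 had the trend called down (against 35.1% of all genes). The second step was the largest in 5 of the 8 (against 14.9% of all genes), as against 0 of 22 adipocyte genes. Uncoupling protein Ucp1, named after its values had been seen, varied widely within control tissue (55.6 to 3110), had 749 to 2510 in small hyperplasias and at most 586 in large hyperplasias and 125 in tumors.

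**Figure D4:**
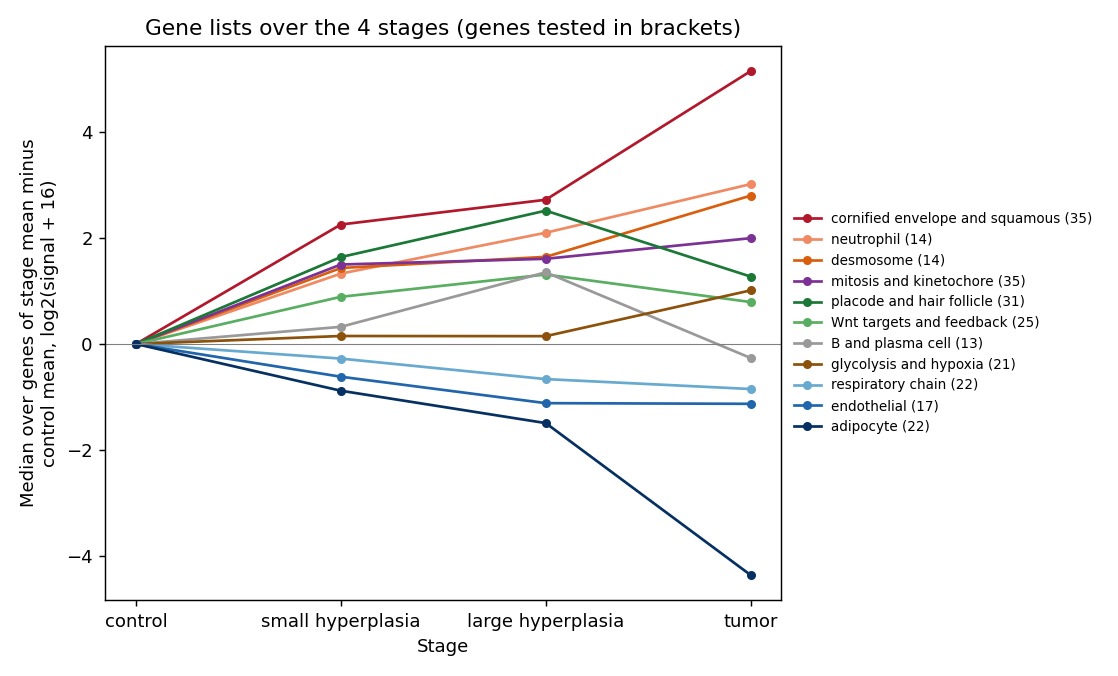
Median over the tested genes of 11 lists of the stage mean minus the control mean, in log2(signal + 16), for the 4 stages. Mitosis genes reach 1.5 in small hyperplasias and 1.99 in tumors, squamous genes 2.25 and 5.14, hair follicle genes are highest in large hyperplasias (2.51), and adipocyte genes reach -4.35 in tumors.

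Hair follicle genes were frequent among the hyperplasia peaks. Of 31 placode and hair follicle genes, 15 were hyperplasia peaks (against 1.49% of all genes), and the list median relative to control tissue was 1.64 log2 units in small hyperplasias, 2.51 in large hyperplasias and 1.27 in tumors. Keratin and keratin-associated genes made up 35 of the 181 genes with a peak (19.3%), as against 69 of 12155 genes tested (0.5677%). This count was made after the class had been seen. A gene was tested if its median reached 30 in any 1 stage, so genes high in the hyperplasias alone could enter both counts through them. How far this raised the shares of peaks was not tested. Many of these genes are close paralogs in clusters, so that their probe sets may share signal. All 8 leading peaks were of this kind or predicted genes: Krtap8-1, Krt71, Krtap11-1, Krt27, Krtap4-16, Krtap13-1, Krt33a and Gm11559.

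Krt71, a keratin of the inner root sheath, had 16.1, 19.4, 15.5 and 7.37 in control tissue, where every value was below 30. It had 591, 536, 615, 748 and 686 in small hyperplasias and 1680, 2300, 1190, 1170 and 855 in large hyperplasias. Tumors 1, 2 and 3 had 478, 651 and 1210, whereas the other 8 had 12.1 to 104. The hyperplasias thus lay above all control samples and above 9 of 11 tumors. The hyperplasias exceeded control tissue by 4.96 ± 0.71 log2 units and tumors by 3.00 ± 0.52 (SE, adjusted p = 0.0032 for both together). Krtap8-1, a matrix protein of the hair shaft, likewise below 30 in every control sample, differed by 5.29 ± 0.88 and 3.39 ± 0.65, and again tumors 1 to 3 (688, 580 and 1180) exceeded the other tumors, which had at most 118. Lhx2, a transcription factor of hair follicle stem cells, had medians of 6.17, 84.6, 194 and 4.29, with 183 in tumor 3 alone and at most 23.8 in the other tumors. Krt15, a keratin of follicle stem cells and resting basal cells, had medians of 26, 865, 2090 and 423, and was the basal gene that peaked. Its adjusted p was 0.040, and the call was lost in 20 of 35 alternative analyses, most of which left out 1 array.

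Shh, Ptch1, Gli1 and Gli2, a ligand, a receptor and effectors of hedgehog signaling, were hyperplasia peaks too. Shh had 51.8, 21.5, 22.5 and 26.9 in control tissue, 137, 172, 88.6, 151 and 94.9 in small hyperplasias and 383, 457, 335, 332 and 313 in large hyperplasias. Tumor 3 had 218, and the other 10 had 13.8 to 74.7. Small and large hyperplasias were separate from each other and from control tissue, and all tumors lay below the large hyperplasias. The differences were 2.35 ± 0.33 log2 units over control tissue and 1.90 ± 0.25 over tumors (adjusted p = 0.00063). The receptor Ptch1, itself a target of the pathway, had 293, 230, 276 and 280 in control tissue, 964, 1530, 755, 900 and 815 in small hyperplasias, 2230, 2180, 1990, 1510 and 1760 in large hyperplasias and 131 to 1200 in tumors, with 1200 in tumor 3. The effectors Gli1 and Gli2 exceeded control tissue by 2.06 and 1.89 and tumors by 1.55 and 1.00, and all 4 control values of Gli1 were below 30. The ectodysplasin receptor Edar peaked at a low level, with medians of 2.77, 37, 38.2 and 10.2. Fras1, Frem1 and Frem2, which form a complex of the epidermal basement membrane, peaked as well, Frem2 with medians of 2.8, 67.6, 123 and 14.1. The hedgehog genes, Edar, and the Fras1 and Frem genes were named after their values had been seen. Only Wnt10a, a Wnt ligand of the placode, rose steadily among the 31 genes of the list, with medians of 18.9, 51.1, 95.1 and 128.

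**Figure D5:**
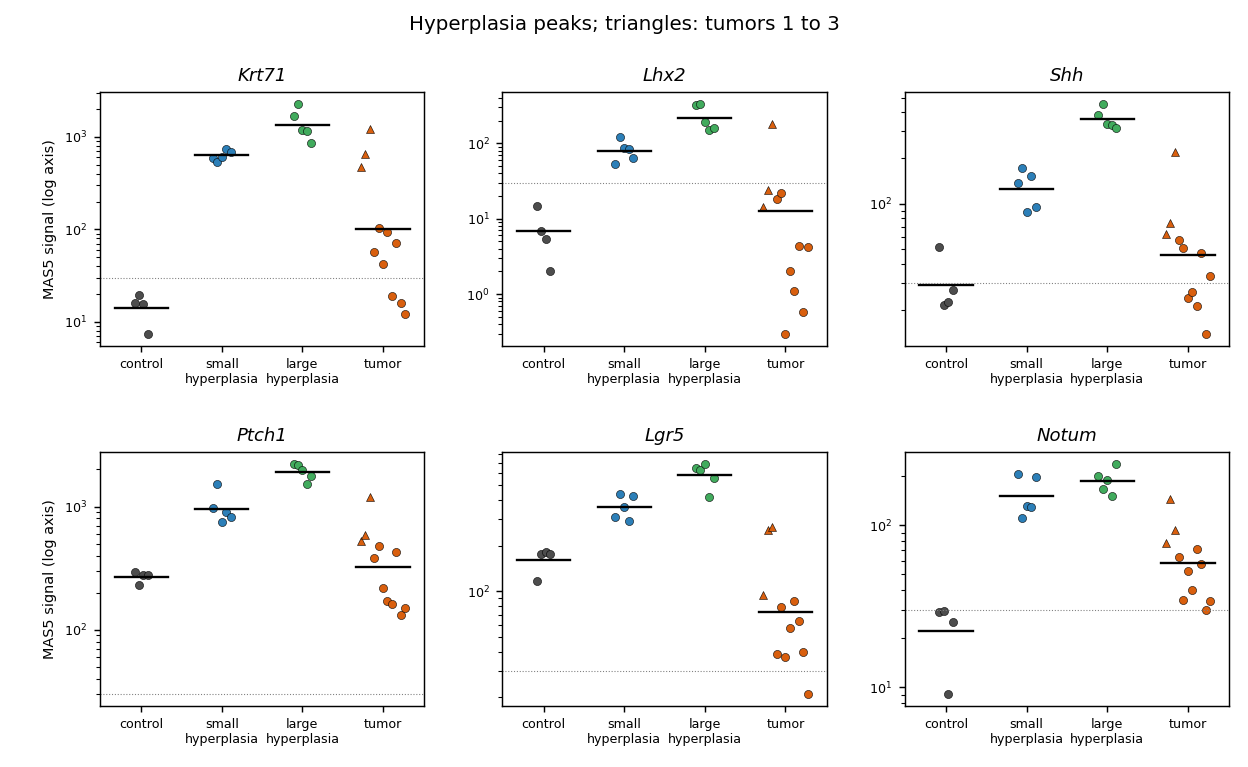
MAS5 signal on a log axis for 6 genes of the hyperplasia peak class (Krt71, Lhx2, Shh, Ptch1, Lgr5, Notum) in each sample of the 4 stages, with symbols and bars as in the plot of steady rises and falls. All 10 hyperplasias lie above the 4 control samples in each of the 6 plots, and the tumor values that reach the lowest hyperplasia all belong to tumors 1 to 3.

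Wnt targets and feedback inhibitors divided by stage. Of 25 genes tested, 17 had the trend called up (against 34.7% of all genes). Within the transgenic tissues 5 of the 25 had it called up and 8 down, against 2999 and 3887 of all 12155 genes. Hyperplasia peaks numbered 7 (against 1.49% of all genes): Nkd2, Lef1, Notum, Rnf43, Sp5, Lgr5 and Lgr6. Notum, which removes the lipid from Wnt ligands, had 29.3, 29.5, 9.06 and 25.3 in control tissue, 207, 111, 132, 129 and 199 in small hyperplasias and 202, 168, 191, 152 and 240 in large hyperplasias. Tumors had 30 to 146, below every large hyperplasia. The hyperplasias exceeded control tissue, where all values were below 30, by 2.27 ± 0.25 and tumors by 1.32 ± 0.19 log2 units (adjusted p = 0.00063). The R-spondin receptor Lgr6 had medians of 83.3, 341, 638 and 62.6, and all 10 hyperplasias, at 311 to 737, lay above the 11 tumors, at 18.9 to 257. Lgr5, the related stem cell receptor, had medians of 176, 359, 633 and 63.3, and here too no hyperplasia overlapped control tissue or tumor. Its call (adjusted p = 0.047) was lost in 26 of 35 alternative analyses, but not without tumors 1 to 3 (adjusted p = 0.000134). Nkd2, an inhibitor acting on Dishevelled, had medians of 81.1, 198, 386 and 114. Lef1, Sp5, Rnf43, Wif1 and Axin2 were named after their values had been seen.

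Other targets of the pathway did not peak. The secreted inhibitor Wif1 had medians of 22, 577, 638 and 466, with a first step of 3.96 log2 units, taken against control values all below 30, and tumors spread from 108 to 1040. Dkk2 was the single steady rise of the list, with medians of 19.7, 42.1, 78.4 and 94.3. Axin2, a general target, had medians of 93.6, 172, 184 and 131 and a slope of 0.14 per stage (adjusted p = 0.038), a call lost in 10 of 35 alternative analyses. Among these were the analyses without tumors 1 to 3 (adjusted p = 0.094), without control sample 1 (slope of 0.09, adjusted p = 0.199) and without control sample 2 or 3, small hyperplasia 2 or 4, or tumor 1, 2 or 8. Myc had medians of 141, 254, 214 and 230, so that its change lay in the first step (0.67 log2 units). Without tumors 1 to 3, 10 of the 25 Wnt genes and 20 of the 31 hair follicle genes were peaks, and Dkk2 was no longer a steady rise.

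The promoters of a Wnt target and of a hair shaft gene of the peak class are shown because both hold a Tcf/Lef core, with capitals as above.
Sp5, chr2:70474673-70474972, plus strand: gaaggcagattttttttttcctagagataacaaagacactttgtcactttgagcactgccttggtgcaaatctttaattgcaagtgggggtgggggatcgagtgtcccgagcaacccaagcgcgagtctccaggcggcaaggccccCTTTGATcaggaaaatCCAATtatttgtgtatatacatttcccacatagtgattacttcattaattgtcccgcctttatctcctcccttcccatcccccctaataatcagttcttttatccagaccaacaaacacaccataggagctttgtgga
Krtap11-1, chr16:89571134-89571433, minus strand: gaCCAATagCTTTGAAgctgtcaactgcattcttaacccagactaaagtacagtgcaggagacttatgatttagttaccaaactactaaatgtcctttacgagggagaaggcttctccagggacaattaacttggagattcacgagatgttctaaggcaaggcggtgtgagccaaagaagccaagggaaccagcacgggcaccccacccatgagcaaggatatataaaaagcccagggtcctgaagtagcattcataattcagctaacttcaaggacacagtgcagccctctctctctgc
In Sp5 the CTTTGAT began 104 bases before the start site, and in Krtap11-1 the CTTTGAA began 241 bases before it. Either of these cores was found in 25 of 141 peak genes with a promoter (17.7%), against 7.27% of 9764 tested genes, 8.89% of steady rises and 7.27% of steady falls. Keratin and keratin-associated genes of the class had it in 10 of 29, and such genes in general in 13 of 54 (24.1%). Other peak genes had it in 15 of 112 (13.4%), and mitosis genes, of which none peaked, in 4 of 30 (13.3%). The core was found in 2 of 16 Wnt genes (12.5%) and 5 of 21 placode and hair follicle genes (23.8%). Of all 27025 genes with a promoter, 9.88% had it. Since a CTTTGAA contains a TTTGAA, the counts of these motifs overlap.

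Some immune genes peaked as well, beside 1.49% of all genes. Of 17 macrophage genes, 1 peaked, whereas 13 had the trend called up (against 34.7% of all genes). Another 2 of the 17, Arg1 and Msr1, were steady rises. Among 10 class II and dendritic genes, 2 peaked, and among 11 T cell genes, 0. Both list medians were nevertheless highest in large hyperplasias. Relative to control tissue they were 0.52, 1.14 and 0.35 log2 units over the later stages for class II and dendritic genes. The T cell list had 0.17, 1.15 and 0.25. The macrophage mannose receptor Mrc1 had 672, 465, 449 and 496 in control tissue, 836 to 1270 in small and 809 to 1240 in large hyperplasias and 324 to 832 in tumors. The chemokine receptor Ccr7 of migrating dendritic cells had medians of 7.98, 41, 90 and 30.5, and the class II gene H2-Eb1 1520, 2130, 3210 and 1870. Of 13 B and plasma cell genes, 2 peaked, Spib and Fcrla, but the list median was 0.32, 1.35 and -0.26 log2 units relative to control tissue, highest in large hyperplasias. Fcrla was below 30 in every control sample, small hyperplasia and tumor, and its call (adjusted p = 0.044) was lost in 21 of 30 alternative analyses. Spib, below 30 in every control sample, lost its call in 4 of 34, among them with signals floored at 30 (adjusted p = 0.325). Jchain, the joining chain of secreted antibodies, had 262, 851, 726 and 361 in control tissue, against which the small hyperplasias had 209 to 2330, the large ones 2840 to 5650 and the tumors 93.2 to 1880. Small hyperplasias overlapped control tissue, and Jchain did not pass as a peak (adjusted p = 0.24). It was named after its values had been seen.

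Tumors remained above control tissue for 255 of the 311 peak probe sets, and large hyperplasias exceeded small ones for 278. The number of peaks depended on the scale between arrays. Large hyperplasias had the highest array medians (29.8 to 32.9), and when each array was centred on its median, 155 of the 311 peaks were called. Without control sample 1 the count was 203.

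Hyperplasia dips were few. Psat1, an enzyme of serine synthesis, had 374, 287, 264 and 345 in control tissue, 216, 236, 211, 229 and 210 in small hyperplasias and 195, 145, 115, 201 and 184 in large hyperplasias. Tumors had 276 to 520, and hyperplasias lay below every control sample and every tumor. The differences were -0.68 ± 0.14 log2 units from control tissue and -0.89 ± 0.11 from tumors (adjusted p = 0.011). Triose phosphate isomerase (Tpi1), a glycolytic enzyme, had medians of 1730, 1330, 1160 and 2470, with the same separation. The polarity protein Mpp7 had 158, 107, 105 and 240. For Tpi1, Mpp7, Nox4 and Tmem248 the other probe sets were not called as dips. Pxdc1 was deepest relative to control tissue, by -1.47 log2 units, with medians of 450, 170, 120 and 249. Nox4, Tmem248, Pold4 and Mmadhc completed the leading dips, and the smaller of their 2 differences was -0.42, -0.41, -0.40 and -0.40 log2 units. Of 35 alternative analyses, 19 lost the call of Tmem248, 11 that of Mpp7, 9 that of Pold4, 6 that of Tpi1, 4 that of Nox4 and 2 that of Psat1. Tpi1 lost it without any single control sample (adjusted p = 0.0622 to 0.137), and Psat1 without control sample 1 or 4 (adjusted p = 0.0754 and 0.0574). Without control sample 1, 14 dips were called, and without control sample 3, control sample 4 or large hyperplasia 3, 20 were called each time.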

How the data were processed

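Total RNA of mouse mammary tissue was hybridised to Mouse Genome 430 2.0 arrays. The authors deposited MAS5 signal intensities on a linear scale, made with Affymetrix Expression Console per the labels' processing notes. MAS5 scaling makes arrays comparable only as far as their total signal is, and no depth exists for arrays, whose number limits the precision. Of 45101 probe sets, 64 control probe sets were left out. Of the remaining 45037, 34945 had 1 gene symbol, 932 several and 9160 none. Probe sets with a median of at least 30 in some stage (24944) were analyzed as log2(signal + 16), which understates changes of dim genes. limma 3.58.1 in R 4.3.3 fitted 1 mean per stage (moderated variance with intensity trend), and p-values were adjusted by Benjamini-Hochberg over all tested probe sets, with a threshold of 0.05. The slope assumes equally spaced stages, which is a convention. Steady classes required steps of at least 0.25. For the peak and dip classes and for the test at every step, the largest p of the contrasts was adjusted. The model code was tested on simulated data. The 6 sorted-cell arrays were not used.

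Each gene was represented by its probe set of highest mean. Named genes were the 8 per class with the largest smallest step (or smaller difference) among those with a median of at least 100 in some stage, up to 3 members per gene list and class, genes named in the study, and further genes chosen after their values were seen, as stated. Members and lists were chosen with earlier results of these data known, so the lists were described by counts and medians only. Alternatives covered the offset, a floor, the filter, the scaling between arrays, the variance model, a replicate block, the spacing of stages, the smallest step, a rule on medians after the study's methods, and each array left out in turn.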

Additional observations from a re-analysis of the deposited data

Results flagged for a closer look

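Of 339 groups of 4 or 5 samples examined for 113 named genes, 14 held a sample far from the others, that is, a gap to its nearest neighbour, on the scale of log2(signal + 16), that was a large part of the group's range. Chance flags about 1 in 20 groups, and no pattern is read from them. In control tissue, sample 1 was high in Oas1a (218, others 74.8 to 76.6, ratio of gap to range 0.9798) and low in Lgr5 (117, others 176 to 181, 0.9254), sample 2 was high in Tpi1 (2000, others 1700 to 1740, 0.8335) and sample 3 low in Notum (9.06, others 25.3 to 29.5, 0.8397).

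In small hyperplasias, sample 2 was low in Ube2c (84.8, others 189 to 203, 0.9108) and high in Ces1f (756, others 316 to 368, 0.8295). Sample 3 was high in Krt1 (567, others 92.1 to 141, 0.7789), sample 4 was high in Tmem45b (1940, others 645 to 861, 0.7396), and sample 5 was high in Lef1 (87.9, others 27.7 to 39, 0.7361) and low in Slc2a1 (226, others 290 to 309, 0.7919). In large hyperplasias, sample 2 was low in H2-Eb1 (2690, others 3190 to 3390, 0.7363), sample 3 high in Mmp13 (389, others 167 to 202, 0.7776), sample 4 low in Arg1 (247, others 687 to 1020, 0.7194) and sample 5 low in Krtap4-16 (169, others 428 to 550, 0.7819).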

How the results depend on the processing

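The counts of trends, in all tissues and within the transgenic tissues, stayed within 1.5 times their main value under every alternative run, and no named gene reversed its direction. Steady rises numbered 3545 with any positive step, 165 with steps of at least 0.5, 1912 by the rule on medians and 395 when counted as genes; steady falls numbered 4247, 398, 2587 and 672 under these settings. With every step tested, 9 rises became 2 with an offset of 1, 19 with signals floored at 30 and 4 without a filter, and 102 falls became 44 with an offset of 1 and 66 without a filter. Peaks numbered 155 with arrays centred on their median, 121 by the rule on medians and 181 as genes; dips numbered 67, 4 and 19 under these settings, and 19 without a filter. Centring on the median raised the upward share of trend calls to 55.4% (main 49.9%) and put the median tumor difference from control tissue at 0.08 (main -0.03). With 1 array left out, trends ranged from 7771 to 8298 up and from 7825 to 8326 down, trends within transgenic tissues from 5273 to 5799 up and from 6783 to 7434 down, steady rises from 553 to 657, steady falls from 1077 to 1230, rises with every step tested from 0 to 14, falls with every step tested from 38 to 118, peaks from 203 to 334 and dips from 14 to 34. Rises with every step tested fell outside 1.5 times 9 without control sample 2, 3 or 4, small hyperplasia 1, 2, 3 or 4, or any single large hyperplasia, and falls with every step tested outside 1.5 times 102 without small hyperplasia 1, 2, 3 or 4 or large hyperplasia 1, 2 or 3. Samples with the same replicate number did not deviate together (correlations of -0.139 to 0.106 over 27 pairs). The labels give no pairing, and whether such samples shared an origin was not tested. A replicate block gave 73 peaks and 9 dips, 647 steady rises and 1157 steady falls. Of 113 named genes, 24 lost their call there, all 8 leading peaks among them. Replicate numbers 6 to 11 occurred only among tumors. With the block, every comparison with tumors therefore rested on tumors 1 to 5, which include the outlying tumors 1 to 3. The analysis without tumors 1 to 3 was chosen after seeing the data; Axin2 lost its trend and Krt18 gained one there. Dim probe sets limit the peak class, in which control tissue was often below 30.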
